A study of Mus musculus with 6 samples.

Results

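The genes described here are Fmr1, its paralogues Fxr1 and Fxr2, and 4 genes for proteins that bind FMRP, namely Cyfip1, Cyfip2, Nufip1 and Nufip2. They were chosen by name, and all 7 were found among the 24411 genes of the deposited files. RNA came from the corpus callosum, the main axon tract between the cortical hemispheres, of B6 mice on postnatal day 4, cut by hand out of frozen sections of 60 µm. The labels call the tissue axon. There were 3 libraries from WT mice and 3 from Mettl14 cKO mice, a conditional knockout of Mettl14, whose protein works with METTL3 to methylate adenosines in mRNA (the m6A mark). The sources used here do not give the Cre driver, the cells it reaches, the sex of the mice or whether each library is a separate animal. The p-values below thus describe the spread among libraries, which may be technical. The question behind the comparison was whether the m6A mark affects which mRNAs reach axons.

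FMRP, the product of Fmr1, is an RNA-binding protein that travels with mRNA in neurons, slows its translation and can recognise m6A-marked transcripts. Its loss causes fragile X syndrome. The paralogues FXR1 and FXR2 share its RNA-binding domains and can form complexes with it. CYFIP1 links FMRP to the cap-binding factor eIF4E, and both CYFIP proteins are also subunits of the WAVE complex, which turns on branched actin growth downstream of Rac1. NUFIP1 is a nuclear FMRP partner that helps to assemble small nucleolar RNA particles, and NUFIP2 is a second FMRP-binding protein found in RNA granules.

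Total expected counts were 670462 to 1268430 per library. Both replicate 2 libraries were the deepest and had shorter fragments, with means of 304.3 bases in WT and 292.7 in cKO against 332.4 to 350.5 in the others. The targeted gene Mettl14 was counted 11, 8 and 5 times in WT replicates 1 to 3 and 2, 7 and 2 times in cKO replicates 1 to 3. On CPM, counts scaled to library size, the exact two-sided permutation p was 0.3, and the smallest value possible with 3 libraries a group is 0.1. A loss was not detectable at this depth. Cell type markers differed between the groups. Summed CPM of 10 myelinating oligodendrocyte markers was 2550 to 4130 in WT and 2 to 10.8 in cKO. In cKO, Mag, Mog, Mobp, Myrf, Enpp6 and Cldn11 had 0 counts, but Mobp had 0 in WT as well. Mog had only 0, 0 and 1 counts in WT replicates 1 to 3. Summed CPM of 10 astrocyte markers was 9640 to 10600 in WT and 2800 to 2910 in cKO. Among these, Gfap was not low in every cKO library, at 53.8, 47 and 1030 CPM against 929 to 1250 CPM in WT. The sum of 9 excitatory neuron markers was 208 to 912 in WT and 5390 to 6090 in cKO. That of 8 general neuron markers was 6090 to 7310 and 7780 to 11500. Of the excitatory neuron markers, Neurod1 and Neurod2 had 0 counts in WT, but Neurod1 also had only 0, 6 and 1 counts in cKO replicates 1 to 3. Slc17a7 and Nrgn went the other way, with means of 142 and 75 CPM in WT and 93.8 and 48.4 CPM in cKO. The other genes of that list had higher means in cKO. Of the general neuron markers, Snap25 and Syt1 went the other way, from means of 453 and 70.2 CPM in WT to 364 and 33.2 CPM in cKO. The rest of these had higher means in cKO. The median log2 fold change of the general neuron list was 0.23, beside 0.07 for all tested genes. The sum of 6 interneuron markers was 815 to 1180 in WT and 24 to 598 in cKO, and that of 8 radial glia and proliferation markers 5070 to 6910 and 2220 to 2480. Xist was absent from WT (0 counts) and had 2970, 2323 and 4618 counts in the cKO libraries, while Eif2s3y, a Y-linked gene, stood at 54, 80 and 51 in WT and at 0 in every cKO library. Genotype and these sex-linked transcripts cannot be told apart here. In bulk tissue, fewer cells of a type and less RNA per cell cannot be told apart either.

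The start regions of the 3 paralogues are shown because Fmr1 is the member whose groups stood apart, and a reader can compare its promoter with those of Fxr1 and Fxr2. They come from RefSeq, build GRCm38.p6, plus strand, 5′ to 3′, and end before the first annotated transcript base. Fmr1 lies at chrX:68678291-68678535, Fxr1 at chr3:34019829-34020057 and Fxr2 at chr11:69632721-69632970. Capitals mark matches, on either strand, to the palindrome of NRF-1, a regulator of housekeeping promoters, searched as GCGCA, any base (N) and GCGC, and to the E-box CACGTG, bound by USF factors. The letters of one motif do not overlap those of the other.
Fmr1: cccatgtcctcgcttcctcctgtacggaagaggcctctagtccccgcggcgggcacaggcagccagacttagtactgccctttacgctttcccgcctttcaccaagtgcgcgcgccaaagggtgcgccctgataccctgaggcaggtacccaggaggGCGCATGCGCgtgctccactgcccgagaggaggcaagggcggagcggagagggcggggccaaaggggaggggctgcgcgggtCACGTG
Fxr1: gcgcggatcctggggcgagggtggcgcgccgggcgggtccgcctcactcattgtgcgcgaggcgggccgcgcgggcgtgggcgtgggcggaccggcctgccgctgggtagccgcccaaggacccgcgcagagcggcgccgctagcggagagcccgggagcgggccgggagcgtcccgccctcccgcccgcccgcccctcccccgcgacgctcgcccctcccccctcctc
Fxr2: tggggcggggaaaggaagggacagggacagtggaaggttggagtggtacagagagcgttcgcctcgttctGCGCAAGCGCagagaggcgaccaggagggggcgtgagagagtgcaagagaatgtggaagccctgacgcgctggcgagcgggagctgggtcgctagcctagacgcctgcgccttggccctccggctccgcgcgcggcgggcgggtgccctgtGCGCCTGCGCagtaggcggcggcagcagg
The Fmr1 window held 1 match to each motif, and its NRF-1 match began 93 bases and its E-box 11 bases before the annotated start at position 68678541. Fxr2 held 2 NRF-1 matches and no E-box, beginning 180 and 29 bases before its start. Of 32851 windows of 300 bases around mouse gene starts, 4.6% held the NRF-1 letters, 7.15% the E-box and 0.61% both. No match was found for Fxr1, and none in the 300-base windows of Cyfip2, Nufip1 and Nufip2. Only these 2 motifs were searched. The Fmr1 sequence shown was 67.8% G or C, against a median of 52.7% over the 32851 windows, so the shares were not matched for base content. A match is a description of these letters only.

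Fmr1 (chromosome X, 68678536 to 68717963, plus strand, GRCm38) was higher in every cKO library than in any WT library. It had 33, 22 and 20 counts in WT replicates 1 to 3, or 37.1, 17.7 and 23.3 CPM, and 66, 112 and 170 counts in cKO replicates 1 to 3, or 88.7, 112 and 240 CPM. The lowest cKO level was thus above the highest WT level, and cKO replicate 3 stood highest of all. The means were 26.0 ± 9.98 CPM in WT and 147 ± 81.7 CPM in cKO (SD, n = 3 each). The fitted log2 fold change was 2.50 (SE 0.62), a ratio of 5.64. This difference did not pass the threshold over all genes (edgeR quasi-likelihood, unadjusted p = 0.00548, Benjamini-Hochberg adjusted p = 0.19). DESeq2 called it with the same log2 fold change of 2.50 (adjusted p = 0.00113). That tool called 429 of 5847 genes, where edgeR called 54 of 5918. Over all alternatives the adjusted p of Fmr1 ran from 0.00113 to 0.528. Leaving out any 1 library gave log2 fold changes of 1.95 to 2.83, the lowest without cKO replicate 3. Within the deep replicate 2 libraries the level was 17.7 CPM in WT and 112 in cKO. With a term that set the replicate 2 libraries apart, the log2 fold change was 2.51 (edgeR adjusted p = 0.153). An exon of Gm27838 overlaps Fmr1, and reads of the 2 genes there cannot be told apart.

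Fmr1 is X-linked, and X-linked genes as a whole stood higher in cKO. Of 205 tested X-linked genes 78 had cKO libraries all above the WT libraries and 12 had them all below. Over all 5918 tested genes the shares were 10.4% above and 9.45% below. At an unadjusted p below 0.05, 61 X-linked genes were higher and 7 lower, and the median log2 fold change was 0.68 on the X chromosome and 0.06 elsewhere. Fmr1 stood above most of them, since 29 of the 205 had a log2 fold change at or above its value, as had 155 of the 5713 tested genes on other chromosomes. The X-linked excess in the median was 0.63 on the log2 scale, 0.27 to 0.97 over the alternatives, with 0.97 without WT replicate 3. The part of the sex-linked, neuronal and glial differences in the Fmr1 result was not tested.

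**Figure D1:**
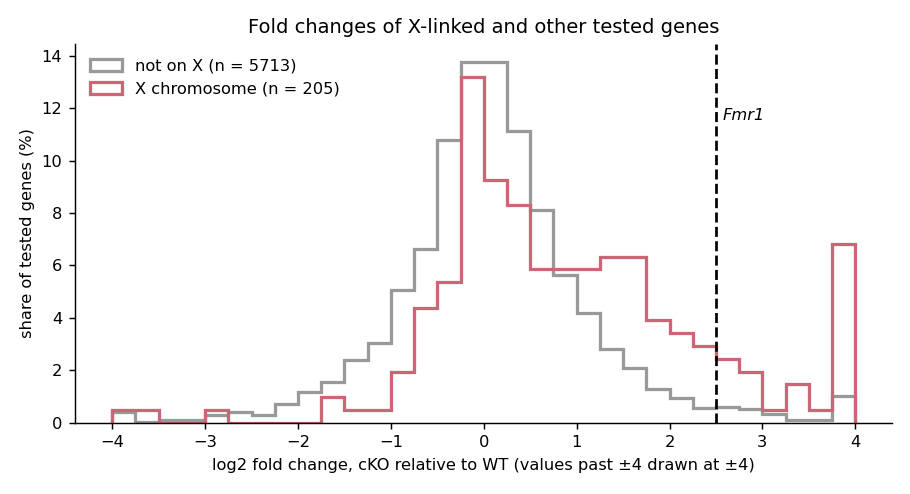
Distribution of log2 fold changes (x axis, cKO relative to WT, edgeR) as a share of tested genes (y axis, percent), for 205 X-linked and 5713 other genes. The X-linked curve extends further to the right, and the dashed line marks Fmr1 at 2.50.

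Among the 7 genes, 6 passed the filter on low counts and were tested, and edgeR called 0 of them at an adjusted p below 0.05, against 0.912% of all tested genes in either direction (0.49% higher, 0.422% lower). At an unadjusted p below 0.05 there was 1, Fmr1, where 12.6% of all tested genes reached that level. DESeq2 called Fmr1 alone, beside 429 of 5847 among all genes, and limma-voom and limma on log2(TPM + 1) called 0 members. The median log2 fold change of the 6 was 0.06, beside 0.07 for all genes.

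**Figure D2:**
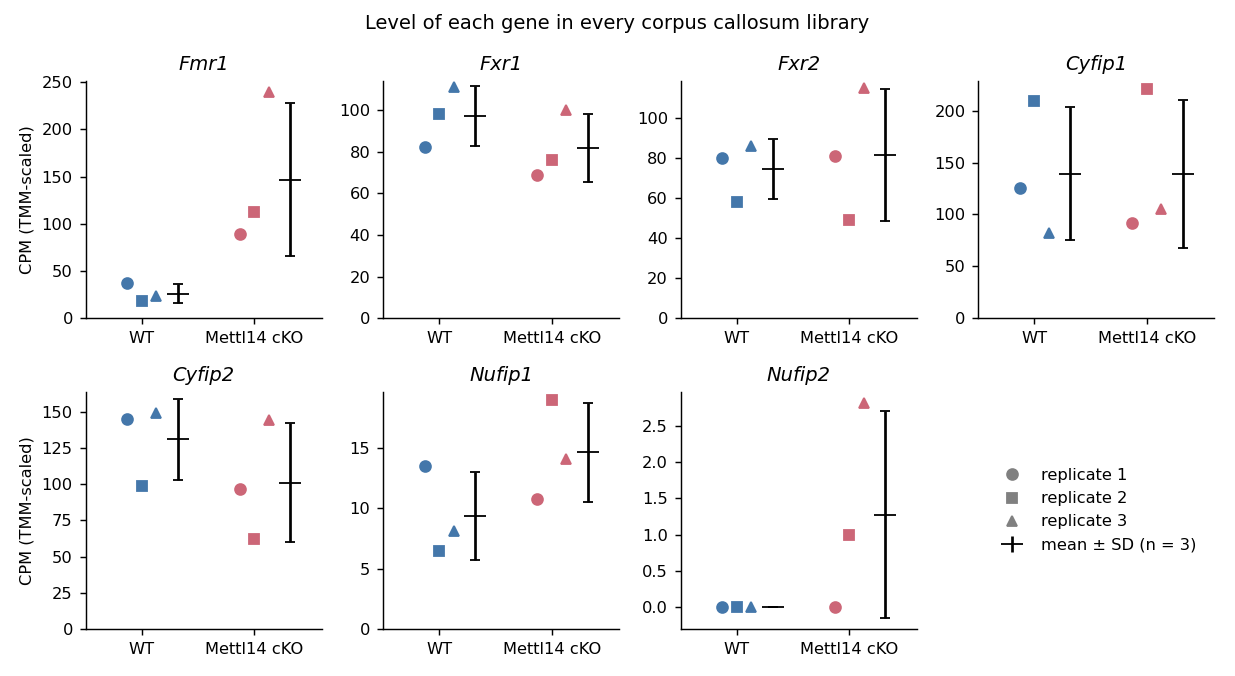
CPM (y axis, TMM-scaled) of each gene in WT and Mettl14 cKO libraries; points are libraries, shaped by replicate number, with mean ± SD beside them. For Fmr1 the 3 cKO points, 88.7 to 240 CPM, lie above the 3 WT points, 17.7 to 37.1, while the groups of the other 6 genes overlap.

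Fxr1 (chromosome 3, 34020058 to 34069980, plus strand) encodes the paralogue that is also needed in muscle. Its level was 82, 98 and 111 CPM in WT and 68.6, 76.1 and 100 CPM in cKO. The cKO values tended to the lower side, but the groups overlapped. The log2 fold change was −0.25 (SE 0.45, edgeR adjusted p = 0.91). Exons of Dnajc19 lie on the opposite strand of this locus, and the library kit does not mark strand. Dnajc19 itself had 59 counts in cKO replicate 2 and 0 to 4 in the others.

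Fxr2 (chromosome 11, 69632971 to 69653297, plus strand) stood at 79.7, 57.8 and 86.1 CPM in WT and at 80.7, 49.0 and 115 CPM in cKO. In both groups replicate 2 was the lowest and replicate 3 the highest. The log2 fold change was 0.13 (SE 0.51, edgeR adjusted p = 0.967), and it turned to −0.09 with upper-quartile scaling, to −0.03 without WT replicate 2 and to −0.19 without cKO replicate 3.

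Per transcript length, on the TPM scale of RSEM, Fmr1 was a small part of its family in WT and a larger one in cKO. Its share of the summed TPM of Fmr1, Fxr1 and Fxr2 was 10.9%, 5.48% and 5.92% in WT and 24.3%, 31.7% and 37.9% in cKO. The mean share was 7.44 ± 3.01% in WT and 31.3 ± 6.78% in cKO (SD, n = 3), a difference of 23.9 percentage points. The exact two-sided permutation test gave p = 0.1, the smallest it can reach, and 0.3 after adjustment over the 3 shares tested here. A share within a library does not depend on how libraries are scaled. The difference was 20.6 to 27.3 points with any 1 library left out. The sum of the family was 116.2 to 124.3 TPM in WT, 108.1 and 106.0 TPM in cKO replicates 1 and 2, and 246.2 TPM in cKO replicate 3.

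**Figure D3:**
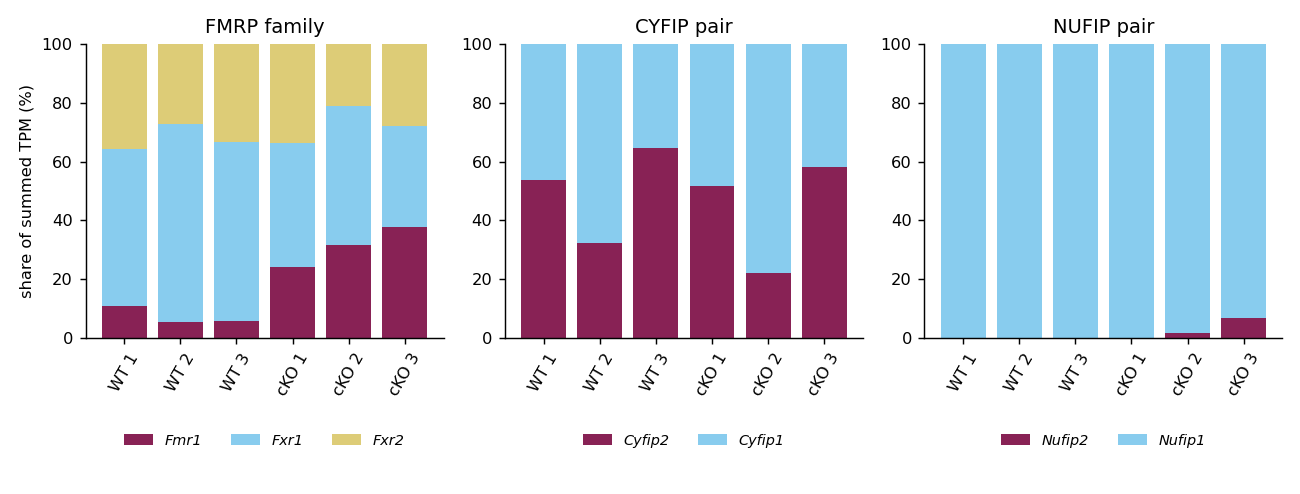
Share of summed TPM (y axis, percent) taken by each paralogue in each of the 6 libraries (x axis), for the FMRP family, the CYFIP pair and the NUFIP pair. The Fmr1 part is 5.48% to 10.9% in WT and 24.3% to 37.9% in cKO, and the CYFIP split is most uneven in both replicate 2 libraries.

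Levels of the 7 genes were also ordered per length. In WT the order was Fxr1 at 71.9 ± 8.53 TPM, Fxr2 at 38.2 ± 5.63, Cyfip1 at 31.6 ± 16.5, Cyfip2 at 29.4 ± 4.88, Fmr1 at 8.81 ± 3.41, Nufip1 at 3.50 ± 1.40 and Nufip2 at 0 (SD, n = 3). The ranges of Fxr2, Cyfip1 and Cyfip2 overlapped from neighbour to neighbour, and the other neighbours did not overlap. In cKO the order was Fxr1 at 60.1 ± 21.3 TPM, Fmr1 at 51.1 ± 36.8, Fxr2 at 42.3 ± 23.7, Cyfip1 at 29.3 ± 13.0, Cyfip2 at 22.9 ± 12.9, Nufip1 at 5.29 ± 1.56 and Nufip2 at 0.187 ± 0.227. There the neighbours from Fxr1 down to Cyfip2 overlapped in their ranges. Fmr1 was above Cyfip2 within each cKO library, at 26.3 against 19.0 TPM, 33.6 against 12.4 and 93.3 against 37.3. Nufip1 and Nufip2 were the lowest in both groups.

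The files list 2 Fmr1 transcripts, which differ by 75 bases in length. The shorter, NM_001290424, has a coding length of 1767 bases and the longer, NM_008031, one of 1842 bases, by the matching GENCODE models. RSEM, which divides fragments between transcripts by estimate, gave the shorter one 8.99, 3.50 and 7.36 TPM in WT and 26.3, 27.7 and 31.1 TPM in cKO. These values were close to each other within cKO. The longer one had 3.71, 2.87 and 0 TPM in WT and 0, 5.92 and 62.2 TPM in cKO. The high Fmr1 total of cKO replicate 3 thus lay mostly in the longer transcript, which took 66.7% of its TPM there, while the shorter transcript alone also separated the groups. No test was made on transcripts.

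Fxr1 has 3 listed transcripts, with coding lengths of 2031, 1863 and 1617 bases. The one of 1617 bases, NM_008053, took 68.4%, 45.6% and 0% of the gene's TPM in WT and 51.5%, 60.0% and 1.5% in cKO. It was thus nearly absent from both replicate 3 libraries and took the largest share in the other 4, though in WT replicate 2 it was close to the 39.5% of NM_001113189. The one of 1863 bases, NM_001113189, took the largest share there, with 82.3% in WT replicate 3 and 67.4% in cKO replicate 3. Fxr2 has 1 listed transcript, with a coding length of 2022 bases.

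**Figure D4:**
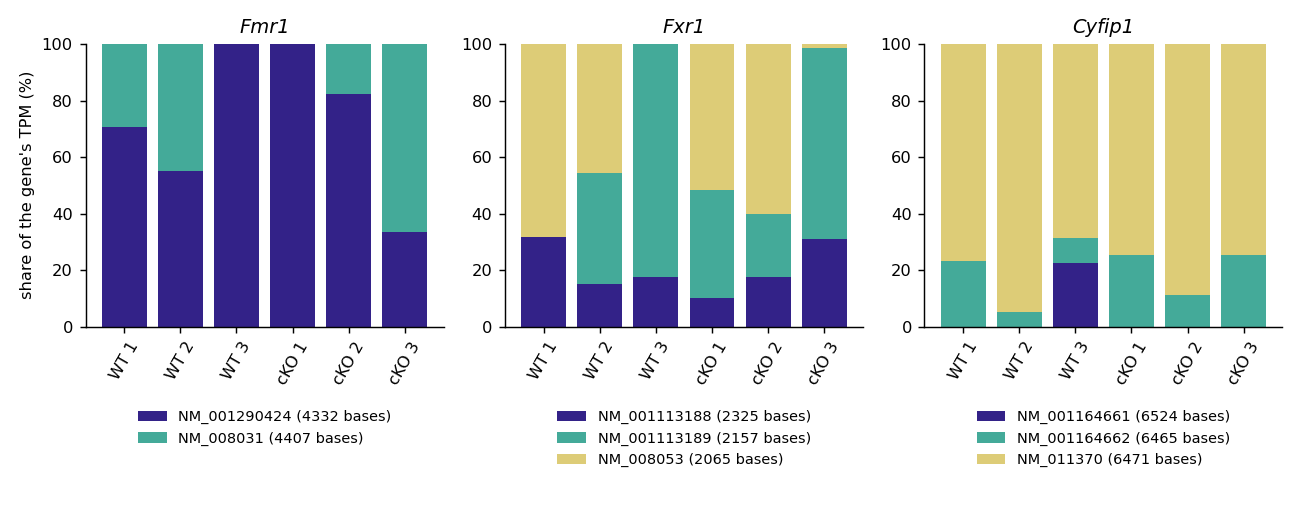
Share of each gene's TPM (y axis, percent) given by RSEM to each listed transcript in the 6 libraries (x axis), for Fmr1, Fxr1 and Cyfip1. The longer Fmr1 transcript reaches 66.7% in cKO replicate 3, and the shortest Fxr1 transcript is at 0% and 1.5% in the replicate 3 libraries.

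Cyfip1 (chromosome 7, 55842022 to 55932633, plus strand), the bridge between FMRP and eIF4E, was measured at 126, 209 and 82.6 CPM in WT and at 91.4, 221 and 105 CPM in cKO. Both replicate 2 libraries were high and the other 4 were low, whatever the genotype. The log2 fold change was −0.00 (SE 0.58, edgeR adjusted p = 1), with 0.41 without WT replicate 2 and −0.51 without cKO replicate 2. Exons of Nipa2 overlap this locus on the opposite strand, and Nipa2 had 36 counts in cKO replicate 2 and 0 to 2 elsewhere. NM_011370 took 68.5% to 94.8% of the Cyfip1 TPM in the 6 libraries.

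Cyfip2 (chromosome 11, 46193849 to 46312859, minus strand), the paralogue most abundant in neurons, was at 145, 98.8 and 149 CPM in WT and at 96.8, 62.1 and 144 CPM in cKO. Here both replicate 2 libraries were the lowest of their group, the reverse of Cyfip1. The log2 fold change was −0.37 (SE 0.51, edgeR adjusted p = 0.855). Its share of the summed TPM of both CYFIP genes was 53.9%, 32.5% and 64.8% in WT and 51.8%, 22.2% and 58.2% in cKO, a difference of −6.28 points in the means (exact two-sided permutation p = 0.6, adjusted 0.6 over the 3 shares). This difference turned positive without WT replicate 3 (0.902 points) or cKO replicate 2 (4.65 points). Both replicate 2 libraries, the deep ones with short fragments, had lower shares than the other 4. The part of depth and fragment length in these levels was not tested.

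Nufip1 (chromosome 14, 76110891 to 76137379, plus strand) was counted rarely, with WT counts of 12, 8 and 7 and cKO counts of 8, 19 and 10, or 13.5, 6.43 and 8.15 CPM and 10.8, 19.0 and 14.1 CPM. The groups overlapped through WT replicate 1 and cKO replicate 1. The log2 fold change was 0.67 (SE 0.43, edgeR adjusted p = 0.601).

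Nufip2 (chromosome 11, 77685764 to 77717966, plus strand) was all but uncounted, with WT counts of 0 in all 3 libraries and cKO counts of 0, 1 and 2. It fell below the filter and was not tested, and an exact two-sided permutation test of its CPM gave p = 0.4. A count of 0 allows up to 3 counts, or 2.41 to 4.24 CPM per library, so no difference was detectable at this depth. Its transcript is 10399 bases long, with 4 exons in the GENCODE model. Of 259 genes whose listed transcripts all reach 10000 bases, 41 (15.8%) had at most 3 counts over the 6 libraries. Among all 24411 genes, 13302 had any rounded count in the 6 libraries. The limits differ, at most 3 counts against any count, so the shares cannot be compared directly. The part of transcript length in the Nufip2 counts was not tested.

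The WAVE complex and its activator, which the CYFIP proteins share, had 12 of 16 listed genes tested. With edgeR 0 passed the adjusted threshold and 0 an unadjusted p below 0.05, against 0.912% and 12.6% of all tested genes. DESeq2, limma-voom and limma on log2(TPM + 1) also called 0. The median log2 fold change was 0.07, equal to that of all genes. Nckap1, the scaffold subunit that pairs with CYFIP, was at 1140, 885 and 1140 CPM in WT and 781, 741 and 431 CPM in cKO, each cKO library below each WT library, and the log2 fold change was −0.70 (SE 0.30), with an edgeR adjusted p of 0.422. Rac1, the GTPase that activates the complex, also had groups that did not overlap, at 634 ± 94.7 CPM in WT and 517 ± 29.0 CPM in cKO (SD, n = 3). Its log2 fold change was −0.29 (edgeR adjusted p = 0.732). Of the 12 tested genes 2 thus lay wholly below WT in cKO and 0 wholly above, where 9.45% and 10.4% of all tested genes did. Abi2, the adaptor subunit, stood at 0.48 (SE 0.31, edgeR adjusted p = 0.606), and Arpc3 of the ARP2/3 complex, with the highest mean TPM, at 0.15 (SE 0.35, edgeR adjusted p = 0.934).

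For partners of FMRP in granules and translation, 23 of 30 listed genes were tested and edgeR called 0, against 0.912% of all tested genes. At an unadjusted p below 0.05 there were 2, where 12.6% of all tested genes reached that level. DESeq2 called 1, Ncl, beside 429 of 5847 among all genes, and both limma fits called 0. The median log2 fold change of the 23 was 0.16. Ncl, nucleolin, had 1270, 883 and 1010 CPM in WT and 1740, 1640 and 1530 CPM in cKO, or 0.63 (SE 0.21) as a log2 fold change, with an edgeR adjusted p of 0.285. Ybx1, an abundant mRNA-packaging protein, stood at −0.62 (SE 0.23, edgeR adjusted p = 0.336), from 3280 ± 671 CPM in WT to 2130 ± 421 CPM in cKO (SD, n = 3). G3bp2, a stress granule protein, was at 0.79 (SE 0.40, edgeR adjusted p = 0.49), with 225 to 587 CPM in WT and 635 to 799 CPM in cKO.

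The small nucleolar RNA assembly genes around NUFIP1 had 11 of 13 tested, with 0 called by both limma fits. With edgeR 0 were called as well, against 0.912% of all tested genes. At an unadjusted p below 0.05 there was 1, where 12.6% of all tested genes reached that level. DESeq2 called 1, Nolc1, beside 429 of 5847 among all genes. The median log2 fold change of the 11 was 0.25. Nolc1, a chaperone of these particles, had WT counts of 12, 9 and 11 and cKO counts of 132, 22 and 23, so that cKO replicate 1 carried most of the difference. Its log2 fold change was 2.78 (SE 0.91, edgeR adjusted p = 0.267) and 1.24 without cKO replicate 1. Ccnt1, a cyclin that binds NUFIP1, stood at 0.88 (SE 0.41, edgeR adjusted p = 0.451), Brca1, another NUFIP1 partner, at −0.91 (SE 0.46, edgeR adjusted p = 0.49), and the core protein gene Nop58 at 0.25 (SE 0.38, edgeR adjusted p = 0.874).

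Among mRNAs reported as bound by FMRP, 49 of 54 were tested. With edgeR 1 fell and 0 rose, where 0.422% and 0.49% of all tested genes did. At an unadjusted p below 0.05, 6 were higher and 3 lower. Of all 5918 tested genes 424 were higher and 320 lower at that level, or 12.6% together. For 7 of the 49 the cKO libraries all lay above WT and for 3 all below, where 10.4% and 9.45% of all tested genes did. Their median log2 fold change was 0.58 with edgeR, against 0.07 for all genes, but 0.29 with limma-voom and 0.26 with limma on log2(TPM + 1). Both neuron marker sums given above were also higher in cKO, and their part in this median was not tested. DESeq2 called 3 higher, among them Nlgn3 and Gabbr2, and 3 lower, Bcan, Kif1a and Ncan, beside 429 of 5847 among all genes. Both limma fits called Bcan alone. The gene that fell was Bcan, brevican, a proteoglycan of the brain matrix made largely by glia, from 1690, 1500 and 2040 CPM in WT to 580, 412 and 414 CPM in cKO, or −1.89 (SE 0.25) as a log2 fold change, with an edgeR adjusted p of 0.0292. Leaving out any 1 library ended this call (edgeR adjusted p = 0.0693 to 0.197), while the log2 fold change stayed at −2.12 to −1.78. Kif1a, a kinesin of synaptic vesicle precursors and the tested target with the highest mean TPM, had 7390, 5610 and 7290 CPM in WT and 3610, 2770 and 5040 CPM in cKO, which gave a log2 difference of −0.83 (SE 0.24) and an edgeR adjusted p of 0.238. The astrocyte and oligodendrocyte marker sums given above moved in the direction of Bcan, as did that of 8 oligodendrocyte precursor markers, at 3900 to 4560 CPM in WT and 546 to 1310 CPM in cKO. Their part in it was not tested.

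**Figure D5:**
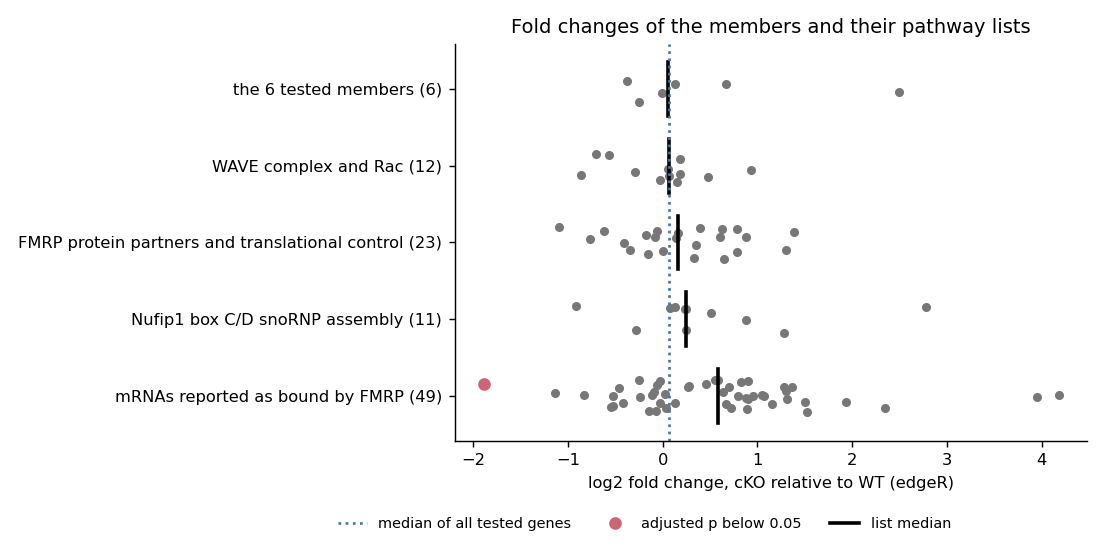
Log2 fold changes (x axis, cKO relative to WT, edgeR) of the 6 tested genes and of the tested genes on 4 pathway lists (rows, number of genes in brackets), with list medians as bars and the median of all tested genes, 0.07, as a dotted line. Bcan, at −1.89, is the point past the adjusted threshold, and Fmr1 is the point at 2.50 in the top row.

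Across the 6 libraries, the genes whose log2 CPM was most like that of Fmr1 among 5917 candidates were Fam49a (Pearson r = 0.994), Taf1c (0.987) and Ryr3 (0.986). None of these is X-linked, and only 205 of all 5918 tested genes are. Those most like Fxr1 were Ctss (0.98), Pde1b (0.979) and Wdr41 (0.967), and those most like Fxr2 were Pak2 (0.989), Dzip1 (0.985) and Ccdc88a (0.984). For Cyfip1 they were Polr2j (0.993), Hivep2 (0.99) and Nr1h2 (0.987), for Cyfip2 Bmp1 (0.99), Pacs2 (0.987) and Nbas (0.986), and for Nufip1 Prpf6 (0.988), Kdm4c (0.97) and Oscp1 (0.96). These are the highest of many values over 6 libraries that share depth and genotype, and they serve as a description only.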

How the data were processed

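The authors deposited 1 RSEM table of RefSeq transcripts per library. The tools were STAR 2.7.10b and RSEM 1.3.3 on mm10, per the submitters' processing notes. No source used here gives the annotation release or the strand setting. The authors deposited expected counts, RSEM's estimate of fragments per transcript, and TPM, which corrects for length and depth, per the file headers. The effective length, another deposited column per the file headers, gave each library's mean fragment length.

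Expected counts and TPM were added up over the transcripts of a gene, and counts were then rounded. The 6 libraries were grouped by title. Counts were tested with edgeR 4.0.16 in R 4.3.3 (quasi-likelihood F-test after TMM; filterByExpr, minimum count 10), cKO against WT over 6 libraries with no covariate, adjusted over 5918 tested genes and called at 0.05. CPM uses the TMM scaling. Each SE was derived from the F statistic and so restates the p-value. DESeq2 1.42.0 and limma 3.58.1 were alternatives, with other scalings and filters, the replicate number as a block, and each library left out. A further fit had a term that set the deep replicate 2 libraries apart from the others. The script was tested on simulated data. Counts of 0 cover counting error only. Of 24411 genes, 24161 matched RefSeq by accession and 157 by symbol. Gene positions and promoters came from RefSeq (GRCm38.p6), and exons, coding lengths and overlaps from GENCODE M21 (GRCm38). No library pair matched within counting noise.

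The members, lists and tests were chosen with earlier results of these data known, and the X-linked comparison was added after seeing the data. Named genes are the 7 members, per list the called genes or else up to 3 with the smallest p, the gene with the highest TPM, and the 3 genes most like each tested member in log2 CPM (prior count 2, mean of at least 5 CPM), with Xist, Eif2s3y and marker lists as sums.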

Additional observations from a re-analysis of the deposited data

How the results depend on the processing

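Depth limits Nufip2 and Nufip1 most, since 3 counts equal 2.41 to 4.24 CPM per library. The members called were 0 higher and 0 lower in every setting run except DESeq2, which called 1 higher (Fmr1). The direction of Fmr1, Fxr1, Cyfip2 and Nufip1 held in all 18 alternatives. Genes called, higher and lower, were 29 and 25 in the edgeR fit and 12 and 10 without a filter. They were 12 and 10 with a filter of 1 CPM in 3 libraries and 250 and 179 with DESeq2. With the replicate 2 term they were 11 and 8. Without both replicate 2 libraries they were 0 and 0 (edgeR alone, with 740 at p below 0.05 before adjustment). With 1 library left out they ran from 0 to 28 and from 0 to 14. Both were 0 without WT replicate 3 and without cKO replicate 1, with 573 and 591 genes at an unadjusted p below 0.05. With the replicate block 1 gene was higher and 0 lower (763 before adjustment). Deviations from the group means correlated by 0.064, 0.462 and 0.162 between libraries of the same number, and by −0.309 to 0.2 between the others. WT replicate 1 had a higher value with cKO replicate 3 (0.2) than with cKO replicate 1 (0.064), while the 0.462 was between the deep replicate 2 libraries. The numbers were not taken to pair the samples. With the block Fmr1 stood at 2.43 (edgeR adjusted p = 0.278).

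Upper-quartile scaling, which took the all-gene median from 0.069 to −0.22, turned Fxr2 to −0.09, Arpc3 to −0.14 and Nop58 to −0.11. With 1 library left out Fxr2 ran from −0.19 to 0.39, Cyfip1 from −0.51 to 0.41, Arpc3 from 0 to 0.24, and the difference in the Cyfip2 share from −15.2 to 4.65 points. The log2 ratio of Nufip2 to Nufip1 with 0.5 TPM added differed by −0.14, against 2.87 points for the share. Bcan lost its call in 12 of 18 alternatives. The causes were not tested.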

Other observations

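Some mRNAs on the list of FMRP-bound transcripts stood apart, and those given here were named after their values were seen. Nlgn3, an X-linked neuronal adhesion gene, had means of 4.91 CPM in WT and 90.5 CPM in cKO, or 4.18 (SE 1.05) on the log2 scale, with an edgeR adjusted p of 0.19; cKO replicates 1 to 3 had 199, 57.1 and 15.6 CPM. Dync1h1, the dynein heavy chain, stood at 1.05 (SE 0.40, edgeR adjusted p = 0.352). Ncan, a matrix proteoglycan like Bcan, was at −1.14 (SE 0.27, edgeR adjusted p = 0.171). Of these genes, DESeq2 called Nlgn3 and Ncan. Map1b, a microtubule-binding protein and a long-studied FMRP target, had 1760, 1810 and 1010 CPM in WT and 5430, 4140 and 39.6 CPM in cKO, so that cKO replicate 3 lay far below every other library.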
